A study of Mus musculus with 8 samples.

Results

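The 8 genes described here, Edem1, Man1b1, H13, Herpud1, Atf4, Atf6, Ddit3 and Vcp, act in the removal of misfolded proteins from the endoplasmic reticulum (ER) or in the response to ER stress. They were taken by symbol, with every probe set (the group of short probes that measures a transcript) annotated to them, which gave 12 of the 12488 probe sets of the array and 8 of its 8252 named genes. Edem1, Man1b1 and H13 entered the group because they were selected on their intensities in T-independent germinal centre B cells, where they had been noted as raised, so their levels in that population are given below as a description with no test. Of the other 5 genes, Herpud1, Atf4, Ddit3 and Vcp were tested in every comparison, and Atf6 lay under the detection floor used here and was not tested.

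A protein that fails to fold in the ER is recognised by its trimmed sugars, moved back through the ER membrane, marked with ubiquitin and broken down by the proteasome, a route called ER-associated degradation. When unfolded proteins build up, sensors in the ER membrane (the PERK, ATF6 and IRE1 branches of the unfolded protein response) raise the expression of chaperones and of the degradation route itself. B cells that turn into antibody-secreting plasma cells enlarge their ER, and the transcription factor XBP1, activated by the IRE1 branch, is needed for this.

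RNA of sorted mouse B cells was hybridised to 8 Affymetrix arrays, 2 for each of 4 groups, and each array carried RNA pooled from several F1 mice of QM and C57BL/6 parents (QMxB6); QM, or quasi-monoclonal, mice carry an inserted antibody heavy chain that recognises the hapten NP. The resting group (pools of 6 and 9 mice) was GL7-negative and B220-positive and came from unimmunised animals, and the 3 immunised groups were sorted as GL7-positive and B220-positive, GL7 being a surface mark of germinal centre B cells and B220 one of B cells. The TI day 4 group (pools of 4 and 10) was sorted on day 4 after 30 µg of NP-Ficoll, a polysaccharide antigen that needs no T cell help. The TD day 4 group (pools of 6 and 9) had been primed with 50 µg of the carrier, chicken gamma-globulin, in alum with heat-killed B. pertussis, received soluble NP-CGG (50 µg, NP on that carrier) as a challenge after 5 weeks, and was sorted on day 4. The TD day 10 group (pools of 6 and 6) was not primed, received 50 µg of NP-chicken gamma-globulin precipitated in alum with heat-killed B. pertussis, and was sorted on day 10. Day, antigen form (soluble or in alum with B. pertussis) and priming therefore differ together between the TD groups. TI day 4 differs from both in antigen form and dose, from TD day 4 also in carrier priming, and from TD day 10 also in day. All animals carried the QM background, so no value here describes B cells of an unselected repertoire.

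Values are the deposited intensities, linear and with some values below 0, and each array's median lay between 77 and 89. For differences, values under a floor of 81, the 50th percentile of all values, were set to the floor before log2 was taken, and 7253 probe sets above it on at least 2 arrays were tested. A fold whose dimmer group had an array at the floor is given as "at least". Arrays carry no counts, so precision is limited by how many there are. In these bulk samples fewer cells of a type and less RNA per cell cannot be told apart.

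Promoters of the 3 genes high in TI day 4 and of Herpud1, which was not, are shown to set their sequences side by side. The RefSeq promoter table used (GRCm38.p6) gave 7 of the 8 genes, all but Atf6, and the 250 bases before the annotated start of each are printed 5′ to 3′ on the gene's strand, which is the plus strand for all 4. The positions are chr6:108828391-108828640 for Edem1, chr2:25332493-25332742 for Man1b1, chr2:152669211-152669460 for H13 and chr8:94386179-94386428 for Herpud1. The start used for Edem1 lies 4596 bases inside the gene's annotated beginning. Capitals mark the letters of the motifs searched on both strands: the ER stress elements ERSE and ERSE-II, the unfolded protein response element TGACGTGG, the core ACGTG, the CCAAT box and the short element CCACG. The box and the short element are parts of both ER stress elements, and ACGTG and CCACG overlap within TGACGTGG.
Edem1: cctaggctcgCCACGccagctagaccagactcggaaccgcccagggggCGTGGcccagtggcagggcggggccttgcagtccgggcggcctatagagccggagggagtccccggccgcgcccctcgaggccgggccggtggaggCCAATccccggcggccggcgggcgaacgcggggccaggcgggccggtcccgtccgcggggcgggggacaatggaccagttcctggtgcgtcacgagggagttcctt
Man1b1: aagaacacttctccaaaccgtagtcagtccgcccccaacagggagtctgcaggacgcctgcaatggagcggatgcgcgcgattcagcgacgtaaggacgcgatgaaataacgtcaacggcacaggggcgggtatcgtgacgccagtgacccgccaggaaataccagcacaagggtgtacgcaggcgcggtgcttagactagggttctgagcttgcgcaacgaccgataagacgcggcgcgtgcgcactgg
H13: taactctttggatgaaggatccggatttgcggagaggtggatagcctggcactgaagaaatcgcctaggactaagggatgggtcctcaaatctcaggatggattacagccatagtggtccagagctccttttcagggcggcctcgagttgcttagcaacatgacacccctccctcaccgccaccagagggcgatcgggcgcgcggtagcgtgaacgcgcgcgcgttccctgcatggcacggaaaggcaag
Herpud1: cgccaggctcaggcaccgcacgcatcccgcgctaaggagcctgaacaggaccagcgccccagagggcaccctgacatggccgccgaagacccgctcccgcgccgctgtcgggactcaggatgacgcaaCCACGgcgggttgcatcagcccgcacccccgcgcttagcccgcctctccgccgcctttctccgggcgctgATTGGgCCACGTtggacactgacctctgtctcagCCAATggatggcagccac

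Motifs were counted in windows of 300 bases, which add the 50 bases after each start, and set beside 32851 RefSeq promoters of the same length. The ERSE-II motif was found in 1 of the 7 gene windows, that of Herpud1, at -52 to -42 from the start, against 0.0365% of all promoters. No window of the 7 held ERSE (0.119% of all). The element TGACGTGG was found in the window of Vcp alone, at -114 to -107 (0.676% of all). The short motifs were common everywhere: ACGTG was in 4 of 7 (H13, Herpud1, Ddit3, Vcp) and 19.6% of all, CCAAT in 5 of 7 (Edem1, Herpud1, Atf4, Ddit3, Vcp) and 37.4% of all, and CCACG in 5 of 7 (Edem1, H13, Herpud1, Atf4, Vcp) and 32.8% of all. In H13 both ACGTG matches, at 7 to 11 and 34 to 38, lie after the start and so outside the printed stretch. The window of Man1b1 held none of these letters. GC content was 76.0% in the Edem1 window, 61.0% in Man1b1, 58.0% in H13 and 68.3% in Herpud1, with a median of 52.7% over all promoters. These matches describe letters in the windows only.

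Edem1 and Man1b1, both of the mannose trimming step, were bright in TI day 4, the values they were selected on. Edem1, which speeds mannose removal and hands glycoproteins to the degradation machinery, read 639 and 803 in TI day 4. It read 128 and 133 in TD day 4, 118 and 118 in TD day 10, and 29 and 46 in resting cells. Every TI array was above every other array, the TD arrays lay between, and both resting arrays were under the floor. The TI mean was 5.49-fold the TD day 4 mean and 6.07-fold that of TD day 10 on the log2 scale (differences of 2.46 and 2.60), and at least 8.84-fold that of resting cells.

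Man1b1, an ER mannosidase whose trimming marks glycoproteins for disposal, read 382 and 540 in TI day 4. It read 55 and 57 in TD day 4, 42 and 58 in TD day 10, and 60 and 126 in resting cells. All 4 TD arrays and 1 resting array were under the floor, so only the TI arrays and resting replicate 2 gave a level above it. TI day 4 was at least 5.61-fold above each TD group and at least 4.5-fold above resting cells.

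H13 encodes signal peptide peptidase, a protease that cuts leftover signal peptides inside the ER membrane. Its bright probe set, 96117_r_at, read 1477 and 2222 in TI day 4, 183 and 262 in TD day 4, 139 and 155 in TD day 10, and 290 and 448 in resting cells. The groups did not overlap, and their order was TI day 4, resting, TD day 4, TD day 10. TI day 4 was 8.27-fold above TD day 4, 12.3-fold above TD day 10 and 5.03-fold above resting cells. The suffix r_at marks a probe set that Affymetrix chose under relaxed rules. A second probe set for H13, 96116_at, read from -45 to -10 on all 8 arrays, TI arrays included, and so did not register the transcript in any group, and the H13 values rest on the first alone.

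**Figure D1:**
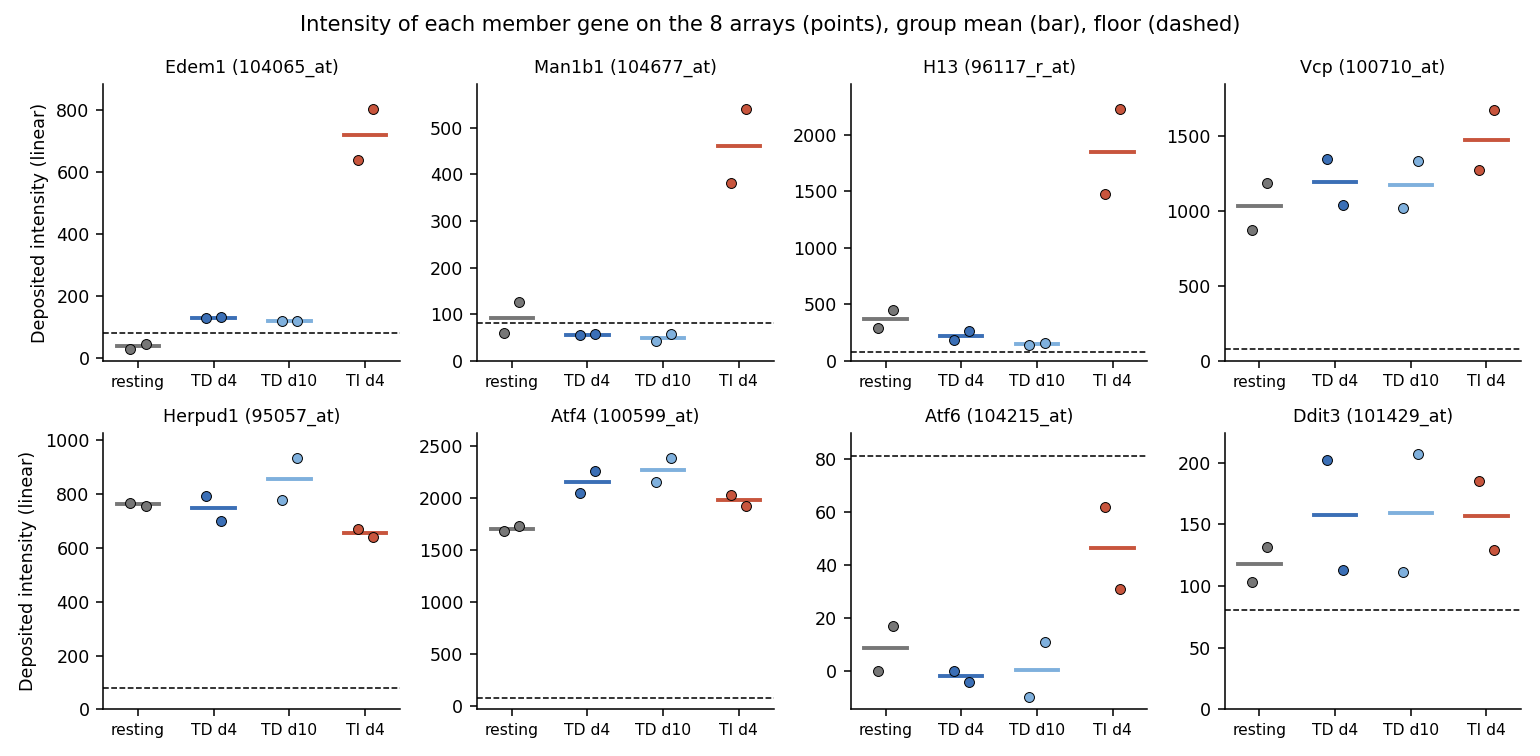
Deposited intensity (linear, vertical axis) of the brightest probe set of each gene on the 8 arrays, by group; points are arrays, bars group means and the dashed line the floor of 81. Edem1, Man1b1 and H13 have both TI day 4 arrays far above the rest (639 and 803 for Edem1). No group of Herpud1, Atf4, Ddit3 or Vcp stands apart to that extent, though the TI arrays are the dimmest for Herpud1 and the resting arrays for Atf4. Atf6 is under the floor on every array.

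The 3 genes were also compared among the groups that did not select them. None of the 7 genes that passed the filter was called in TD day 10 against TD day 4, TD day 4 against resting or TD day 10 against resting (limma, adjusted over 7253 probe sets). Over all probe sets 0% rose and 0% fell in the first of these comparisons, 5.83% rose and 3.58% fell in the second, and 6.45% rose and 4.44% fell in the third. The 9 probe sets of the 7 genes gave 0, 1 and 3 unadjusted p-values under 0.05 in the same order, against 5.14%, 22.3% and 23.5% of all probe sets. Man1b1 is among the 7, but every TD array of it was set to the floor, so no call between the TD groups was possible. Of its resting arrays only replicate 2 was above the floor, so its lack of a call against resting cells is no result either.

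Edem1 came close to the threshold. Both TD day 4 arrays and both TD day 10 arrays were brighter than both resting arrays, by at least 1.61-fold (log2 difference at least 0.69 ± 0.17 SE, n = 2 each, limma adjusted p = 0.057) and at least 1.46-fold (0.54 ± 0.17, limma adjusted p = 0.11). With the floor at the 40th percentile the adjusted p was 0.012 and 0.013, and with a pseudocount in place of the floor it was 0.031 and 0.041. Over all alternatives it ran from 0.012 to 1 in TD day 4 and from 0.013 to 1 in TD day 10, the value of 1 coming with the floor at the 60th percentile (143), under which all of these arrays lie. The TD groups themselves differed by -0.14 ± 0.17 (TD day 10 minus TD day 4, limma adjusted p = 0.98).

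H13 had the opposite sign. Both arrays of each TD group were dimmer than both resting arrays, with a log2 difference of -0.72 ± 0.32 (95% interval -1.50 to 0.06, limma adjusted p = 0.26) in TD day 4 and of -1.30 ± 0.32 (-2.07 to -0.52, limma adjusted p = 0.055) in TD day 10. The second of these values passed under 5 alternatives (limma adjusted p from 0.024 to 0.22 over all alternatives). TD day 10 minus TD day 4 was -0.58 ± 0.32 (limma adjusted p = 0.96). Man1b1 passed the filter only through the TI arrays that selected it, and 1 of its other 6 arrays was above the floor, so its values allow no comparison among these groups.

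**Figure D2:**
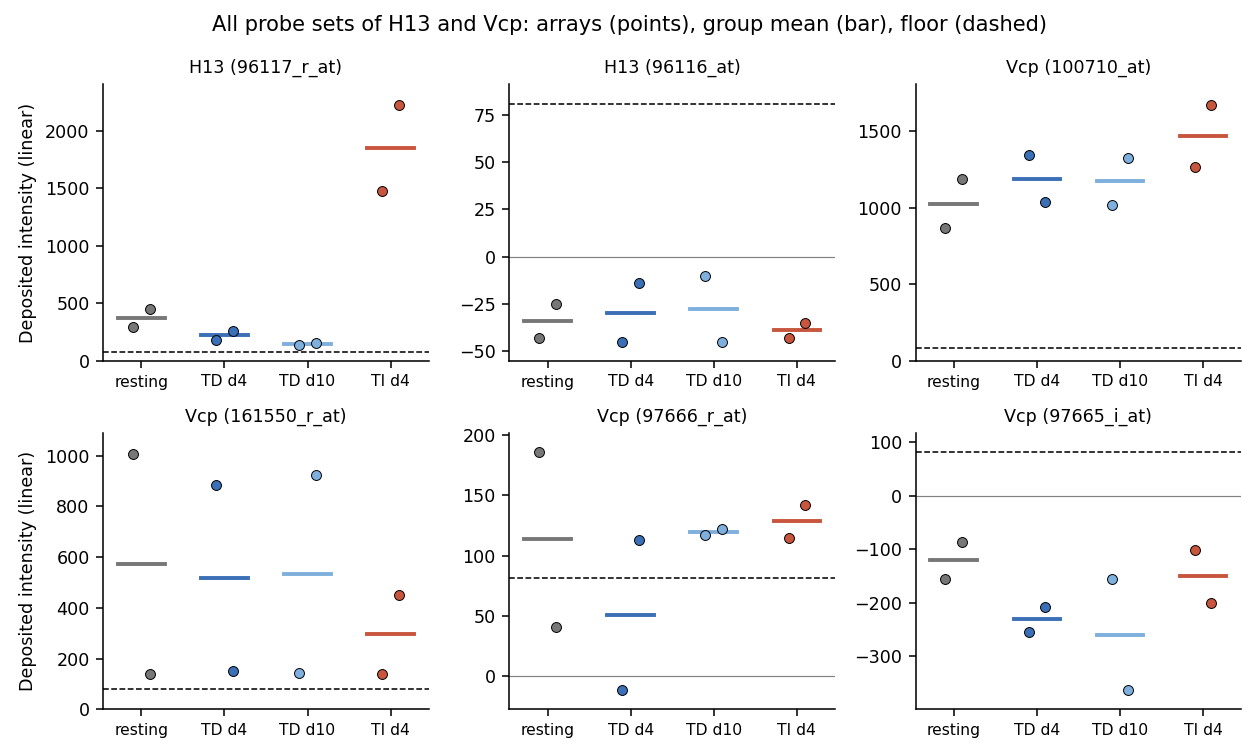
Deposited intensity (linear, vertical axis) of every probe set of H13 and Vcp on the 8 arrays by group; points are arrays, bars group means, the dashed line the floor and the thin line 0. For H13 only 96117_r_at has TI day 4 arrays set apart, and 96116_at lies under 0 on all arrays; for Vcp, 161550_r_at differs several-fold between arrays of one group (1008 and 141 in resting).

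The next step of the route, extraction from the membrane, is carried out by Vcp, an ATPase that pulls ubiquitin-marked proteins out of the ER. Its brightest probe set, 100710_at, read 1269 and 1673 in TI day 4, 1344 and 1038 in TD day 4, 1018 and 1328 in TD day 10, and 870 and 1187 in resting cells. The TI arrays overlapped those of both TD groups and lay above both resting arrays. No difference passed: TI day 4 minus TD day 4 was 0.30 ± 0.27 (95% interval -0.34 to 0.95, limma adjusted p = 0.72), TI day 4 minus TD day 10 0.33 ± 0.27 (limma adjusted p = 0.6) and TI day 4 minus resting 0.52 ± 0.27 (-0.13 to 1.17, limma adjusted p = 0.33).

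The other Vcp probe sets did not follow the first. At 161550_r_at the arrays read 1008 and 141 in resting cells, 884 and 152 in TD day 4, 145 and 923 in TD day 10, and 141 and 452 in TI day 4. In every group 1 array was far brighter than its partner, and the spread within groups, an SD of 1.75 on the log2 scale, was wider than that of 99.9% of the probe sets tested (median 0.27). At 97666_r_at the values ran from -12 to 186, and at 97665_i_at all 8 were under 0 (from -364 to -86). Across the 8 arrays 100710_at correlated with 161550_r_at at r = 0.129 and with 97666_r_at at r = -0.294.

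Herpud1 encodes an ER membrane protein of the ubiquitin ligase complex that carries out ER-associated degradation, and it is a classic target of the unfolded protein response. It read 669 and 639 in TI day 4, 794 and 701 in TD day 4, 777 and 935 in TD day 10, and 768 and 757 in resting cells. Both TI arrays were the dimmest of the 8. The log2 differences did not pass: -0.19 ± 0.17 from TD day 4 (95% interval -0.60 to 0.22, limma adjusted p = 0.72), -0.38 ± 0.17 from TD day 10 (-0.79 to 0.02, limma adjusted p = 0.32) and -0.22 ± 0.17 from resting cells (-0.63 to 0.18, limma adjusted p = 0.51).

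Of the transcription factors of the stress response, Atf4, whose protein is made when the kinase PERK slows translation, read 2028 and 1923 in TI day 4, 2043 and 2254 in TD day 4, 2148 and 2381 in TD day 10, and 1677 and 1726 in resting cells. It was the steadiest of the 7 genes, with an SD within groups of 0.08 on the log2 scale. All 6 germinal centre arrays were above both resting arrays, by 0.33 ± 0.15 in TD day 4 (95% interval -0.03 to 0.70, limma adjusted p = 0.27), 0.41 ± 0.15 in TD day 10 (0.04 to 0.78, limma adjusted p = 0.17) and 0.22 ± 0.15 in TI day 4 (limma adjusted p = 0.49), none of which passed. TI day 4 minus TD day 4 was -0.12 ± 0.15 (-0.49 to 0.25, limma adjusted p = 0.82), and TI day 4 minus TD day 10 was -0.20 (limma adjusted p = 0.58).

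Ddit3, or CHOP, is the factor downstream of Atf4 that is linked to cell death under lasting stress. It read 185 and 129 in TI day 4, 202 and 113 in TD day 4, 111 and 207 in TD day 10, and 103 and 132 in resting cells. The germinal centre groups overlapped each other. TI day 4 minus TD day 4 was 0.03 ± 0.42 (95% interval -0.98 to 1.04, limma adjusted p = 1), an interval that allows a change of about the same size either way, and TI day 4 minus resting was 0.41 ± 0.42 (limma adjusted p = 0.65). Atf6, an ER membrane sensor that is cut and sent to the nucleus under stress, read 62 and 31 in TI day 4, 0 and -4 in TD day 4, -10 and 11 in TD day 10, and 0 and 17 in resting cells. All 8 arrays were under the floor, so Atf6 was not tested and gave no level.

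Counted over the 4 genes of the tested group (6 probe sets of Herpud1, Atf4, Ddit3 and Vcp), 0 rose and 0 fell in TI day 4 against TD day 4, TD day 10 or resting cells, and 0 had an unadjusted p under 0.05 (limma). Over all 7253 probe sets, 0.731% rose and 0.717% fell in the first of these comparisons, 1.2% rose and 1.2% fell in the second, and 5.42% rose and 3.98% fell in the third, with unadjusted p under 0.05 for 14.4%, 17.2% and 22.9%. At such shares 0 of 6 is near the background. The comparisons share arrays (the TI arrays in these 3, the resting arrays in the comparisons with resting cells), so their values are not independent.

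**Figure D3:**
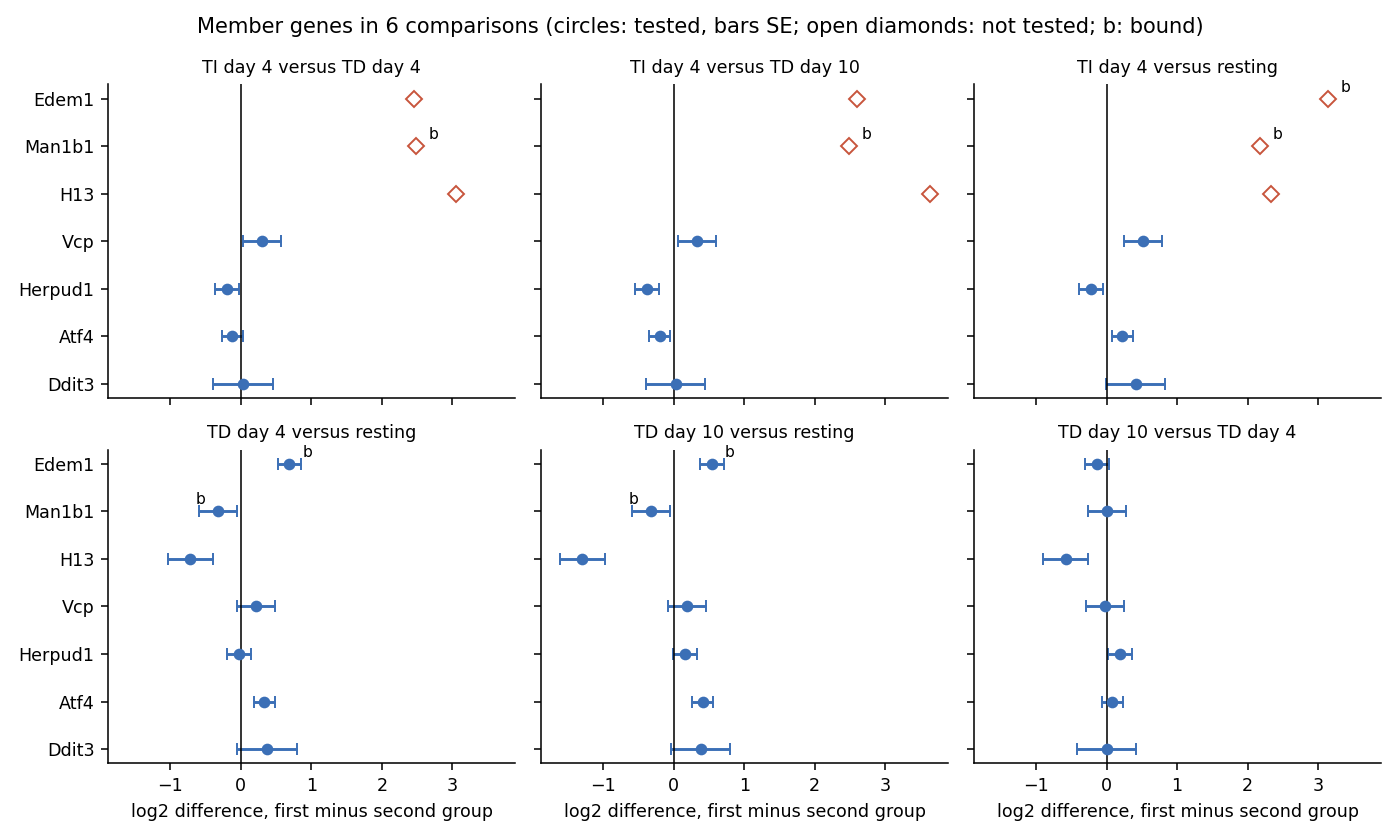
Log2 difference (horizontal axis, first minus second group) of the 7 genes above the floor in each of the 6 comparisons; circles with bars are tested differences ± SE, open diamonds are differences of Edem1, Man1b1 and H13 that were not tested because these genes were chosen for TI day 4, and b marks a bound. The diamonds lie between 2.17 and 3.63, and none of the circles passed the threshold.

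The rest of the degradation route was read from a list of 47 genes without the 8, of which 27 were on the array and 20 were tested. Against TD day 4, 1 of the 20 rose in TI day 4 and 0 fell, where 0.731% of all probe sets rose. The median log2 difference was 0.15 (-0.01 over all probe sets). Against TD day 10, 2 rose and 0 fell (median 0.17, against -0.08 over all), where 1.2% of all rose. Against resting cells, 3 rose and 1 fell (median 0.12, against -0.02), where 5.42% of all rose and 3.98% fell. In the same order 11, 8 and 5 of the 20 had an unadjusted p under 0.05 (limma), against 14.4%, 17.2% and 22.9% of all. These counts take both directions and include Sel1l, described next. Sel1l, the adaptor that links substrates to the ubiquitin ligase of the ER, read 326 and 308 in TI day 4. It read 55 and 75 in TD day 4, 30 and -92 in TD day 10, and -54 and 41 in resting cells. Only the TI arrays were above the floor, and TI day 4 was at least 3.91-fold above each other group. Sel1l is the 1 call against TD day 4 and among the calls in the other 2 comparisons. It passed the filter only through the TI arrays, and the other 6 arrays, all set to the floor, show no spread, so its p-values are not given and its calls are no support for the list.

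Edem2, a paralog of Edem1 that acts in the same mannose trimming, read 1078 and 1295 in TI day 4, 546 and 378 in TD day 4, 448 and 460 in TD day 10, and 544 and 451 in resting cells. It was 2.39-fold higher in TI day 4 than in resting cells (log2 difference 1.25 ± 0.23, limma adjusted p = 0.024) and 2.6-fold higher than in TD day 10 (limma adjusted p = 0.041). Against TD day 4 Edem2 was also 2.6-fold higher but did not pass (limma adjusted p = 0.055). Edem3 and Man1a, which also act on mannose, did not pass in any comparison of TI day 4. Edem3 read 77 and 76 in TI day 4 and 104 and 140 in TD day 4. Man1a read 275 and 357 in TI day 4, 158 and 159 in TD day 4, 122 and 198 in TD day 10, and 297 and 242 in resting cells. It was 1.98-fold above TD day 4 and 2.02-fold above TD day 10 (limma adjusted p = 0.18 and 0.14). Rnf5, a ubiquitin ligase of the ER membrane, was 2.03-fold higher than in resting cells (limma adjusted p = 0.04). Ubqln2, which carries ubiquitinated proteins to the proteasome, was at least 1.85-fold lower than in resting cells (limma adjusted p = 0.021). In the degradation list the 1 call against TD day 4 went to 0 without TD day 4 replicate 1, TD day 4 replicate 2 or TI day 4 replicate 2. The 2 calls against TD day 10 went to 0 without TD day 10 replicate 1 and to 1 without any other array compared, and the 4 against resting went to 1 without either TI array.

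The degradation list was also set against resting cells in the TD groups. Ube2g1, a ubiquitin-conjugating enzyme of the route, was 1.77-fold higher in TD day 4 (limma adjusted p = 0.028) and 1.66-fold higher in TD day 10 (limma adjusted p = 0.038) than in resting cells, and Ubqln2 was at least 1.91-fold lower in TD day 10 (limma adjusted p = 0.017). These were the 1 call in TD day 4 (median of the list -0.12) and the 2 in TD day 10 (median -0.11). Over all probe sets 5.83% rose and 3.58% fell in TD day 4, and 6.45% rose and 4.44% fell in TD day 10. Between the TD groups 0 of 20 passed, with 1 at an unadjusted p under 0.05 (5.14% of all probe sets). The calls in each TD group went to 0 without either array of that group, and the 1 in TD day 4 became 2 without resting replicate 2.

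Of 40 listed genes of the unfolded protein response and ER stress, again without the 8, 30 were on the array and 24 were tested. Against TD day 4, 3 rose in TI day 4 and 0 fell (median log2 difference 0.52, against -0.01 over all probe sets), where 0.731% of all probe sets rose. Against TD day 10, 3 rose and 0 fell (median 0.68, against -0.08), where 1.2% of all rose. Against resting cells, 7 rose and 1 fell (median 0.85, against -0.02), where 5.42% of all rose and 3.98% fell. The largest rise among those that passed was that of Creld2, an ER chaperone-like protein induced by stress, which read 1338 and 1708 in TI day 4, 300 and 306 in TD day 4, 250 and 337 in TD day 10, and 273 and 227 in resting cells. It was 4.99-fold above TD day 4 (limma adjusted p = 0.013), 5.21-fold above TD day 10 (limma adjusted p = 0.0093) and 6.07-fold above resting cells (limma adjusted p = 0.0023).

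The chaperone Hsp90b1 (GRP94), abundant in the ER lumen, was 4.35-fold, 4.15-fold and 3.44-fold higher in the same order (limma adjusted p = 0.026, 0.018 and 0.011). Dnajc3, a co-chaperone of the ER, was 3.46-fold higher than in TD day 4 (limma adjusted p = 0.038) and 3.37-fold higher than in resting cells (limma adjusted p = 0.013). Against TD day 10 it was 2.79-fold higher and did not pass (limma adjusted p = 0.054). Xbp1 read 2072 and 2951 in TI day 4, 810 and 761 in TD day 4, 497 and 856 in TD day 10, and 756 and 548 in resting cells. It was 3.79-fold above TD day 10 (limma adjusted p = 0.044) and 3.84-fold above resting cells (limma adjusted p = 0.018). Against TD day 4 it was 3.15-fold higher and did not pass (limma adjusted p = 0.075). Dnajb11, Hspa5 and Eif2ak3 were the other rises against resting cells, named after their values were seen, at 2.63-fold, 1.79-fold and 2.07-fold (limma adjusted p = 0.02, 0.045 and 0.033). The gene that fell was Ero1a, an oxidase that supports disulphide formation, at 2.13-fold (limma adjusted p = 0.018).

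The calls of the stress list changed when single arrays were left out. Such a fit rests on 1 array in a group, and the calls over all probe sets under it are not given here. The changes in this list and the other lists therefore cannot be read as particular to them. Against TD day 4 all 3 went to 0 without any 1 of the 4 arrays compared. Against TD day 10 the 3 went to 0 without TD day 10 replicate 1, TD day 10 replicate 2 or TI day 4 replicate 2, and to 1 without TI day 4 replicate 1. Against resting cells the 8 went to 4 without either resting array, to 3 without TI day 4 replicate 1 and to 1 without TI day 4 replicate 2. In the TD groups the list gave 1 rise and 1 fall each against resting cells (medians 0.09 and 0.08) and 0 calls between them, 0 of them at an unadjusted p under 0.05. Of all probe sets 5.83% rose and 3.58% fell in TD day 4 against resting, and 6.45% and 4.44% in TD day 10. Eif2ak3, which encodes the sensor PERK, was 2.42-fold higher in TD day 4 (limma adjusted p = 0.018) and 2.2-fold higher in TD day 10 (limma adjusted p = 0.024), and Ero1a was 1.96-fold and 1.9-fold lower (limma adjusted p = 0.027 and 0.028). These 2 calls per group went to 0 without either array of the TD group and to 1 without resting replicate 2.

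The third list held proteases that cut within membranes or remove signal peptides, with their subunits, as functional relatives of H13. Of its 16 genes 9 were on the array, and all 9 were tested. Psen2, a presenilin and thus an aspartyl protease of the same kind as signal peptide peptidase, read 218 and 216 in TI day 4, 84 and 108 in TD day 4, -49 and 82 in TD day 10, and 199 and 194 in resting cells. It was 2.28-fold higher in TI day 4 than in TD day 4 (limma adjusted p = 0.035) and at least 2.66-fold higher than in TD day 10 (limma adjusted p = 0.017). Against resting cells it was 2.06-fold lower in TD day 4 (limma adjusted p = 0.018) and at least 2.41-fold lower in TD day 10 (limma adjusted p = 0.0082). Spcs2, a subunit of the signal peptidase that acts before signal peptide peptidase, was 1.85-fold higher in TI day 4 than in resting cells (limma adjusted p = 0.034). These were the list's only calls in the 6 comparisons. Over all probe sets 0.731% rose in TI day 4 against TD day 4, 1.2% against TD day 10 and 5.42% against resting cells. Those that fell below resting cells made up 3.58% for TD day 4 and 4.44% for TD day 10. List medians of TI day 4 were 0.18, 0.04 and 0.14 in that order, against -0.01, -0.08 and -0.02 over all. The TD medians against resting cells were -0.24 and -0.26 (-0.02 and 0.04 over all). Among 9 genes, 1 call in a comparison is too few to tell apart from these shares. The calls against the TD groups went to 0 without any 1 of the arrays compared. The 1 against resting cells went to 0 without either TI array or resting replicate 2 and became 2 without resting replicate 1. The fall of Psen2 in TD day 4 was the 1 call of the list there, which went to 0 without TD day 4 replicate 1 and became 2 without resting replicate 1, and the 1 in TD day 10 went to 0 without either TD day 10 array and became 3 without resting replicate 1.

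**Figure D4:**
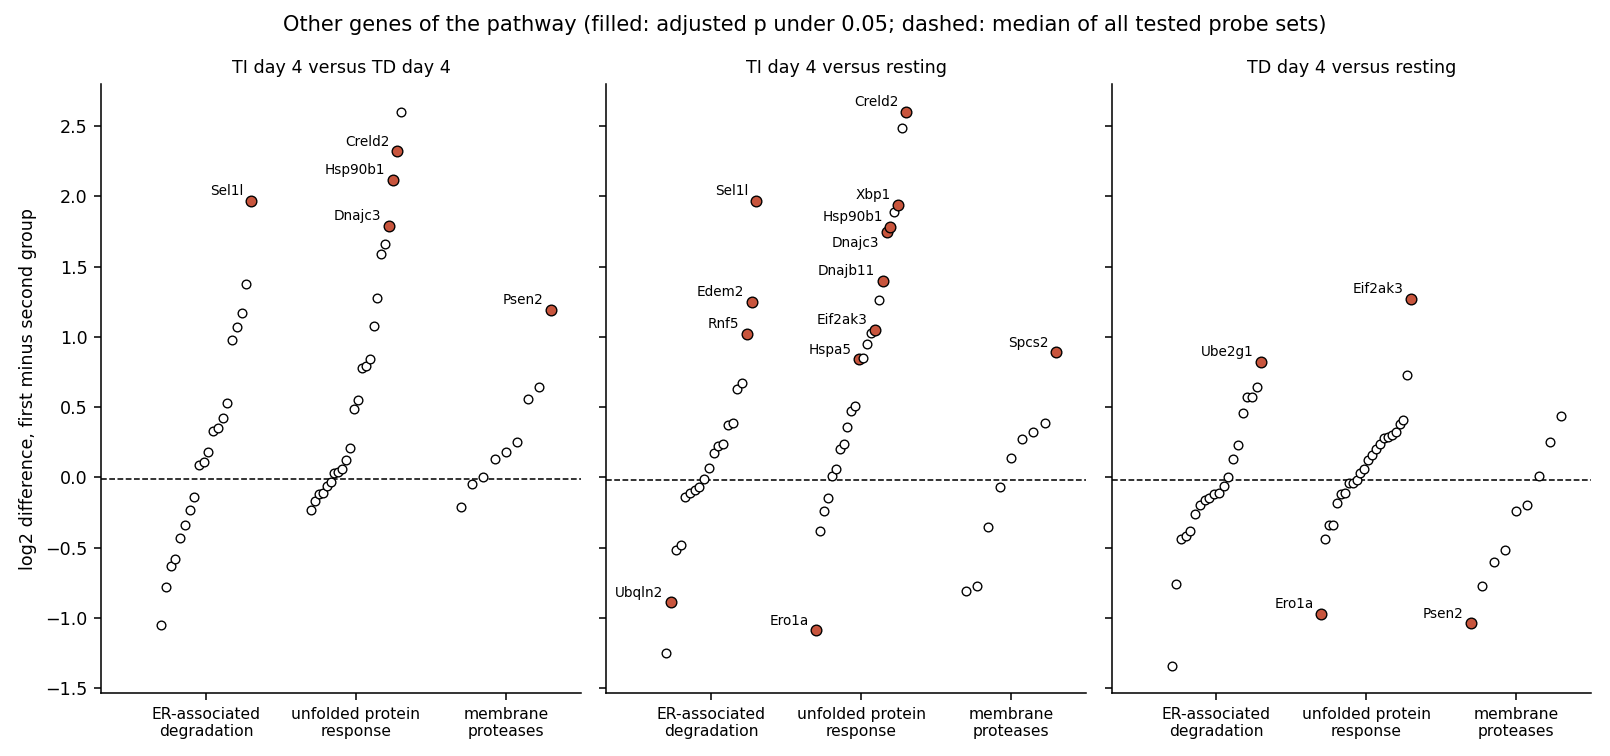
Log2 difference (vertical axis, first minus second group) of each tested gene of the 3 lists, sorted within its list, in 3 comparisons; filled points passed at an adjusted p under 0.05 and are named, and the dashed line is the median of all tested probe sets. Creld2 is the highest filled point in both comparisons of TI day 4 shown (2.32 and 2.60). In TI day 4 against resting, the stress list has 7 rises and 1 fall among 24 genes. The degradation list has 3 rises and 1 fall among 20 there, and the protease list 1 rise among 9. Over all probe sets 5.42% rose and 3.98% fell in that comparison. Sel1l is a filled point in both comparisons of TI day 4, but it passed the filter only through the TI arrays and is no support.

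Levels were also followed across all 8 arrays, as a description over arrays of 4 groups that share their group differences. Edem1 and Man1b1 correlated at r = 0.932, Edem1 and H13 at 0.858 and Man1b1 and H13 at 0.968. The TI arrays that chose these genes enter all 3 values. Herpud1 correlated with them at -0.698, -0.741 and -0.809. The genes with the pattern most like Edem1 were Rexo2 (r = 0.994), Dnajc3 at its probe set 102415_r_at (0.987) and Creld2 (0.986), of which Dnajc3 and Creld2 belong to the stress list. Man1b1 was most like Gclc (0.998), Sycp1 (0.994) and Ces1d (0.993). H13 was most like Igll1 (0.983), BC004004 (0.976) and Slc4a1 (0.974). Among the unselected genes, Herpud1 was most like Mc1r (0.979), Atf4 most like Arl1 (0.98), Ddit3 most like Rora (0.928) and Vcp most like Qrich1 (0.932).

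Other features moved with TI day 4. B cell markers (6 of 7 on the array, all 6 tested) summed to between 21589 and 22172 in TI day 4, 21145 and 23624 in TD day 4, 19825 and 20668 in TD day 10, and 27521 and 31482 in resting cells. The germinal centre and cycling list (4 of 5 on the array) summed to 1352 and 1328 in TI day 4, below the 2406 to 2915 of the TD arrays and above the 573 and 615 of resting cells. Plasma cell markers (5 of 8 on the array, 3 tested) summed to 8217 and 10777 in TI day 4, 2692 and 3406 in TD day 4, 2347 and 2728 in TD day 10, and 1499 and 1587 in resting cells. Most of this sum was Jchain, the chain that joins antibody polymers (7347 and 9356 in TI day 4), while Sdc1 and Prdm1, which define plasma cells, were below the filter. Tnfrsf17 read 563 and 805 in TI day 4 and 216 to 296 elsewhere, 2.69-fold above resting cells (limma adjusted p = 0.018). It did not pass against TD day 4 or TD day 10 (limma adjusted p = 0.055 and 0.06). Irf4 (125 and 516 in TI day 4, 292 and 511 in resting cells) was not called.

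Macrophage markers (13 of 13 on the array, 10 tested) summed to 6975 and 5926 in TI day 4, 2699 to 3072 in TD day 4, 2058 to 2754 in TD day 10 and 4024 to 4206 in resting cells. Most of the TI sum was Apoe (4213 and 3371), while Adgre1, Marco and Mrc1 were below the filter and Marco was at or under 0 on all arrays. Other markers of the list went the other way, with C1qa at 130 and -13 in TI day 4 and 708 and 597 in resting cells. Against resting cells 1 of the 10 tested rose in TI day 4 (Apoe) and 2 fell (C1qa and C1qc). Over all probe sets 5.42% rose and 3.98% fell in that comparison. Genes of sorting stress (10 on the array, 9 tested) summed to 13549 and 9977 in TI day 4 and to between 3229 and 7841 elsewhere. The largest parts of the TI sum were Hspa1b (3841 and 1874), Hspa1a (2876 and 1709) and Fos (2150 and 1711). These were the 3 that rose against resting cells, and 0 of the 9 were called against either TD group. Ier2 was dimmer in TI day 4 (601 and 620) than in resting cells (999 and 1241), and Egr1 and Junb lay within the range of the other arrays. Sums for red cell precursors (5 of 7 on the array) were 22662 and 25147 in resting cells, 2351 and 2866 in TI day 4 and 713 to 1277 in the TD groups. Slc4a1 made most of the TI sum (1700 and 2317), while Hba-a1 (508 and 490) and Hbb-b2 (110 and 59) were no higher than the brightest TD arrays and Alas2 was under 0. Those for neutrophils (8 of 8) were 6542 and 6675 in resting cells and 1734 to 2823 elsewhere, and those for T cells (7 of 8, of which 2 were at or under 0 on all arrays) 427 to 834 over all arrays. The part of these other cells and of sorting stress in the levels of Edem1, Man1b1, H13 and the listed genes was not tested.

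The ratio of 3′ to 5′ signal of the Gapdh control, which rises when RNA is shortened, was 1.24 and 1.68 in TI day 4, 0.867 and 1.59 in resting cells, 0.981 and 0.954 in TD day 4, and 0.836 and 0.896 in TD day 10. With this ratio as a covariate the log2 difference of TI day 4 from TD day 4 was 2.37 for Edem1, 2.02 for Man1b1 and 2.57 for H13. That from TD day 10 was 2.49, 1.89 and 3.01 in the same order. Over all probe sets the covariate took the calls from 105 to 0 against TD day 4, from 174 to 7 against TD day 10 and from 682 to 554 against resting cells. The calls of all 3 lists against both TD groups went to 0, among them Psen2 and Creld2. The protease list's 1 call against resting cells, Spcs2, went to 0 too, while against resting cells the stress list had 7 calls in place of 8 and the degradation list 3 in place of 4.

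**Figure D5:**
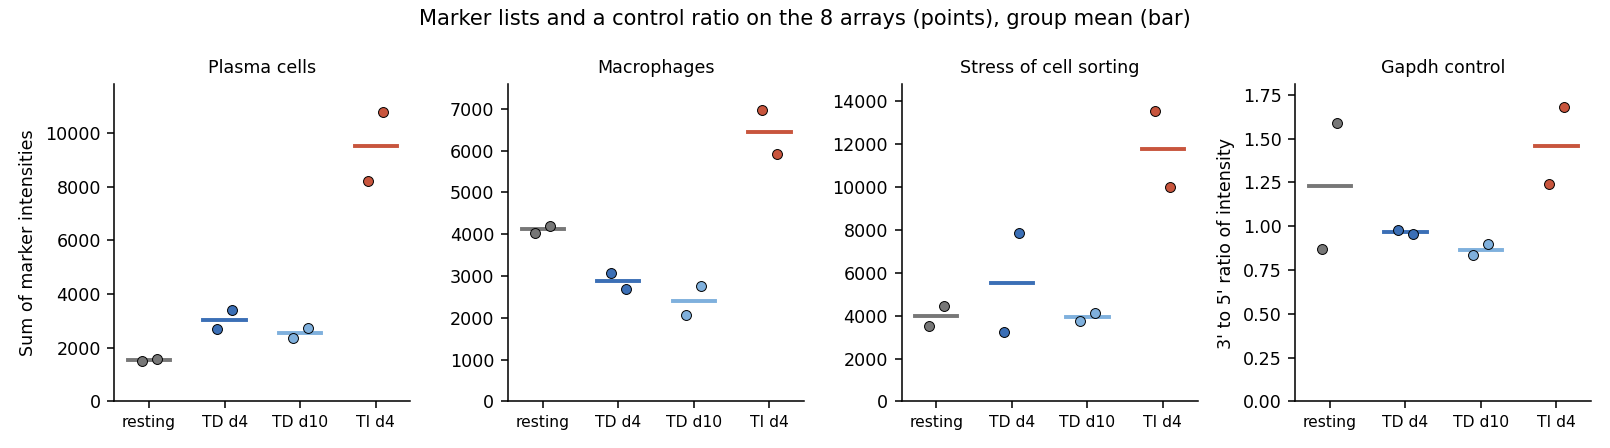
Summed deposited intensities of 3 marker lists and the Gapdh control's ratio of 3′ over 5′ signal (vertical axes) on the 8 arrays by group; points are arrays and bars group means. Both TI day 4 arrays are highest for the plasma cell list (8217 and 10777), the macrophage list and the sorting stress list, and the Gapdh ratio of TI day 4 (1.24 and 1.68) overlaps that of resting cells (0.867 and 1.59).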

How the data were processed

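Per the labels, total RNA of sorted cells (magnetic enrichment, then flow sorting) was extracted with RNAzol, biotin-labelled and hybridised by the Affymetrix standard protocol, and the replicates are biological. The deposited intensities are linear whole numbers, 30.1% of them 0 or below, with a trimmed mean (2% off each end) of 200 on every array. Which software and scaling the authors used is not given in the sources used here. Values were used as deposited, floored at 81 and taken to log2, since values of 0 or below have no log, after 66 control probe sets were set aside. The floor understates differences of dim genes.

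Of the probe sets 10855 name 1 gene in the platform annotation, 396 several and 1237 none, and no probe set names one of the 8 genes together with another gene. The limma package (3.58.1, R 4.3.3) fitted the 4 groups together so that all 8 arrays share 1 estimate of spread, with 4 residual and 2.2 prior degrees of freedom. Tests in the 6 comparisons were two-sided, at an adjusted p of 0.05 by Benjamini-Hochberg over 7253 probe sets. The method was tested on simulated data. Replicates of a group correlated at 0.932 to 0.965 on the log2 scale.

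The genes and lists were chosen with earlier results of these data known. Named are all probe sets of the 8 genes, from each list and comparison the up to 4 called genes with the smallest p, and for each gene the closest of the 3 most correlated genes or all 3. The brightest probe set stands for a gene that has several. Promoters came from RefSeq (GRCm38.p6), and no genome of the array's build was used. Alternatives were array weights, a fit of only the 4 arrays compared, a replicate block, the trended and robust prior, quantile normalization, a common median, other filters, a pseudocount, a floor at the 40th or the 60th percentile, the Gapdh ratio as a covariate and each array left out in turn. A crossed replicate block was added after seeing the data.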

Additional observations from a re-analysis of the deposited data

Results flagged for a closer look

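Effects against resting cells differed between the T-independent and T-dependent groups for some genes. H13 lay above resting cells on both TI day 4 arrays and below them on both arrays of each TD group, a gap of 3.05 from TD day 4 and 3.63 from TD day 10 on the log2 scale, which was not tested because H13 was chosen for its TI level. Among the listed genes the difference of the effects was the TI minus TD contrast itself, and it passed in limma against TD day 4 for Creld2 (log2 difference 2.32, adjusted p = 0.013), Hsp90b1 (2.12, adjusted p = 0.026), Dnajc3 (1.79, adjusted p = 0.038) and Psen2 (1.19, adjusted p = 0.035). Against TD day 10 it passed for Creld2 (2.38, adjusted p = 0.0093), Hsp90b1 (2.05, adjusted p = 0.018), Xbp1 (1.92, adjusted p = 0.044), Psen2 (at least 1.41, adjusted p = 0.017) and Edem2 (1.38, adjusted p = 0.041). Edem2 (1.38) and Xbp1 (1.66) did not pass against TD day 4 (limma adjusted p = 0.055 and 0.075). Dnajc3 (1.48) did not pass against TD day 10 (limma adjusted p = 0.054). No listed gene passed between the TD groups. Sel1l was also called, at a difference of at least 1.97 from each TD group, but it passed the filter only through its TI arrays and had every other array at the floor, so its p is not given. With the Gapdh ratio as a covariate 0 probe sets passed against TD day 4 over the whole array and 7 against TD day 10, none of them of these lists. For Psen2 the TD groups fell and TI day 4 stayed near resting cells in level (218 and 216 against 199 and 194), whereas for the other listed genes the TI arrays rose.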

How the results depend on the processing

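The 33 tested values, from the brightest probe sets of 7 genes, were each recomputed under 15 to 17 alternatives. This gave 543 recomputed values, and 9 of these were a call where the reported fit gave none. Those of Man1b1, with its TD arrays at the floor in the reported fit, are counted but tell nothing. In TD day 10 against resting the number of calls was 1 in place of 0 with a common median, with the filter at 4 arrays, with the floor at the 60th percentile, with the replicate block and with the trended and robust prior, the gene being H13 each time (adjusted p = 0.024 with the block). It was 1 with the floor at the 40th percentile and with a pseudocount, the gene being Edem1, and these settings also gave 1 call, Edem1, in TD day 4 against resting. Without any 1 array the number of calls was 0 in all 6 comparisons. With 2 arrays a group, small differences are beyond the reach of these tests.

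The sign of some small differences, none of them called, changed. Herpud1 in TD day 4 against resting was 0.02 with quantile normalization, and Atf4 in TD day 10 against TD day 4 was -0.01 with a common median. Ddit3 in TI day 4 was -0.06 against TD day 4 and -0.08 against TD day 10 with the floor at the 60th percentile, and -0.10 and -0.14 with the Gapdh covariate. With that covariate Vcp was -0.07 in TI day 4 against TD day 4, -0.15 against TD day 10 and 0.08 in TD day 10 against TD day 4, and Man1b1 was 0.03 in TD day 10 against resting. Leaving out single arrays gave ranges of -0.01 to 0.44 for Vcp in TD day 4 against resting, -0.03 to 0.42 in TD day 10 against resting and -0.21 to 0.17 between the TD groups. For Ddit3 they were -0.05 to 0.79 in TD day 4 against resting, -0.07 to 0.83 in TD day 10 against resting, -0.39 to 0.45 in TI day 4 against TD day 4 and -0.42 to 0.48 against TD day 10, and for Herpud1 in TD day 4 against resting -0.12 to 0.06. The cause of these changes was not tested.

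The 9 untested differences of Edem1, Man1b1 and H13, recomputed under the same alternatives, kept their sign in all 144 recomputed values. Of these values 30 moved by more than the spread of replicates. Across the alternatives, TI day 4 over TD day 4 ran from 3.78-fold to 6.15-fold for Edem1, 3.18-fold to 8.11-fold for Man1b1 and 5.94-fold to 10.1-fold for H13. Calls over all probe sets ranged from 0 to 261 for TI day 4 against TD day 4 (105 reported), 0 to 292 against TD day 10 (174) and 100 to 726 against resting (682), from 118 to 730 for TD day 4 against resting (683), 0 to 863 for TD day 10 against resting (790) and 0 to 14 between the TD groups (0). Calls in TI day 4 of the stress list ranged from 0 to 6 against TD day 4 (3 reported), 0 to 7 against TD day 10 (3) and 0 to 9 against resting (8), and those of the degradation list from 0 to 4 (1), 0 to 3 (2) and 1 to 4 (4) in the same order. The reported calls of the degradation list include Sel1l in each of these comparisons. It passed the filter only through the TI arrays, so its calls are no support for the list. With only the 4 arrays compared the stress list had 0 calls in each of these comparisons. That setting also left 0 calls over all probe sets against TD day 10 and 100 against resting cells, so the loss is not particular to the list. Between groups, same-numbered arrays deviated from their group means with correlations from -0.217 to 0.121. Whether any arrays were prepared together was not tested. The crossed block, chosen after seeing the data, gave 0 calls among the 8 genes. In TD day 10 against resting it gave 0 calls over all probe sets too, so there it is no check of these genes.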
